A study of Mus musculus with 2 samples.

Results

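The genes described here are 10 paternally expressed imprinted genes of the mouse that lie outside the Igf2-H19, Kcnq1ot1 and Dlk1-Dio3 domains. They are Sfmbt2, Snrpn, Snurf, Peg3, Peg10, Mest, Impact, Plagl1, Zdbf2 and Slc38a4. Every probe set that the platform annotation assigns to exactly one of these names was taken, which gave 14 probe sets for 8 of the 10 genes, out of 17097 genes named by at least 1 probe set. Peg10 and Mest were named singly by 0 probe sets. RNA came from feeder-free mouse embryonic stem (ES) cells infected with a pMSCV-neo retrovirus, in which the U6 promoter drove a short-hairpin RNA against H2A.B, a short variant of histone H2A, or a control sequence. Cells of both groups had been under G418, which selects infected cells, for 2 to 4 weeks. One array was hybridised for the H2A.B knockdown, whose title carries the number 1 without saying what it counts, and 1 for the control knockdown. The labels name neither the ES cell line nor whether the infected cells were a pool or a clone. No difference below has a replicate error, no test can be made, and every value describes these 2 arrays.

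An imprinted gene is transcribed mainly from the allele inherited from one parent. Differential DNA methylation laid down in the germline marks most such loci, and zinc finger proteins with KAP1 (Trim28) and Dnmt1 protect the mark after fertilisation. At a smaller group, which includes Sfmbt2 and Slc38a4, the maternal allele is silenced by histone H3 lysine 27 methylation from the oocyte, and this form of imprinting is kept chiefly in extraembryonic tissue. The arrays read the RNA of both alleles together, so neither imprinting nor its loss was measured. The cells of each culture were also read together, and fewer expressing cells and less RNA per cell cannot be told apart.

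The table holds log2 intensities, so a difference of 1, given as H2A.B knockdown minus control knockdown, is 2-fold. The array medians were 5.59 for the H2A.B knockdown and 5.63 for the control knockdown. A gene was given the value of its brightest probe set, and 8282 genes with a mean of at least 6.73 over both arrays passed the expression filter. Of the 10 genes, 7 passed, Peg3 had a mean just under the limit, and 2 had no value. The knockdown itself was not checked: 0 probe sets named H2ab1, H2ab2 or H2ab3 singly, and probe sets naming several genes were not searched for them. Among ES cell markers, 9 of 10 were measured and all 9 passed the filter, with log2 intensities from 10.12 to 14.22 in the H2A.B knockdown and from 10.14 to 14.24 in the control knockdown. Their median difference was 0.03. The deposited knockdown column holds a series of 616 values rising in steps of 1, and 1455 control values repeat a value a few rows above. These and 2 knockdown values above 20 were left out, and 0 of the 14 probe sets were among them. The first, middle and last sections of the table, divided at the first and the last repeated control value, hold 9, 3 and 2 of the 14.

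Sfmbt2 was much dimmer on the H2A.B knockdown array than on the control array, while the other 6 genes past the filter differed little between the arrays. Among probe sets, 3 of 14 were at least 2-fold lower and 0 were 2-fold higher, where 2.67% and 1.04% of all usable probe sets were. These 3 belonged to Sfmbt2 and Slc38a4. Among genes past the filter 1 of 7 was at least 2-fold lower, where 1.28% of all genes were, and 0 of 7 were 2-fold higher, where 0.676% were. The median difference over the 7 genes was -0.03, beside -0.0016 over all genes past the filter. Leaving Sfmbt2 aside, differences lay between -0.06 and 0.04 in all 6, and 43.8% of all genes past the filter lay within 0.06 of 0. That limit was set after the values were seen.

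**Figure D1:**
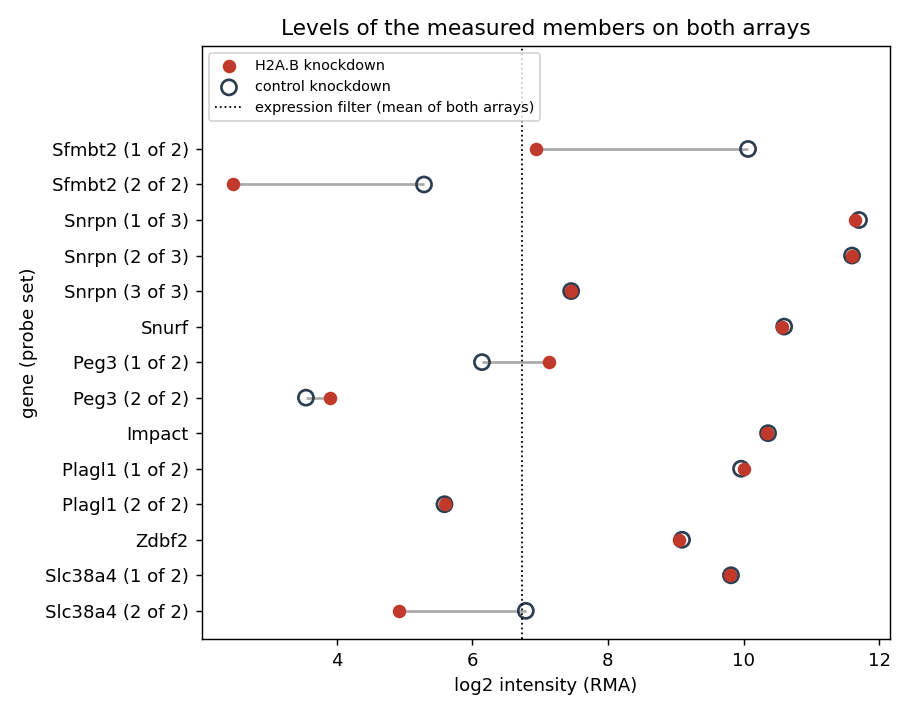
Log2 intensity (x axis) of each of the 14 probe sets (rows) on the H2A.B knockdown array (filled points) and the control knockdown array (open points), joined by a line, with 1 array per group and the expression filter of 6.73 dotted. Both Sfmbt2 probe sets and the dimmer Slc38a4 probe set sit far to the left on the H2A.B knockdown array, the brighter Peg3 probe set sits to the right, and the points of Snrpn, Snurf, Impact, Plagl1 and Zdbf2 nearly coincide.

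Annotated starts of the genes whose probe sets differed are shown with CG dinucleotides, the sites of DNA methylation, in capitals. For Slc38a4 only the outermost of 3 annotated starts is shown. Each sequence is from RefSeq on GRCm38.p6, 5′ to 3′ on the strand of the gene, from 250 bases before to 50 after the start. The deposited files name no genome build. Of the 10 genes, 8 had such an entry.
Sfmbt2 upstream start (chr2:10370201-10370500, plus strand): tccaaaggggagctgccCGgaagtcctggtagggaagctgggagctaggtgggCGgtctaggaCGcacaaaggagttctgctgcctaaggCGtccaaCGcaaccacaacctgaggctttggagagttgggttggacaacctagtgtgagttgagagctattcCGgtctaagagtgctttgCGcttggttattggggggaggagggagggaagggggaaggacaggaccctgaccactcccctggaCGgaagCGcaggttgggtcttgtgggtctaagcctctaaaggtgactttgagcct
Sfmbt2 downstream start (chr2:10372186-10372485, plus strand): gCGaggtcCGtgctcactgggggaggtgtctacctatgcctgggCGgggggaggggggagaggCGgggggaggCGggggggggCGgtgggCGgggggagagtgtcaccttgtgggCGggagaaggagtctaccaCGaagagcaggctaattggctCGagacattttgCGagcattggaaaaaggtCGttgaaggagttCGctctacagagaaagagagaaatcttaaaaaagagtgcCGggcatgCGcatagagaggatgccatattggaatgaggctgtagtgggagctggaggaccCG
Slc38a4 outermost start (chr15:97055907-97056206, minus strand): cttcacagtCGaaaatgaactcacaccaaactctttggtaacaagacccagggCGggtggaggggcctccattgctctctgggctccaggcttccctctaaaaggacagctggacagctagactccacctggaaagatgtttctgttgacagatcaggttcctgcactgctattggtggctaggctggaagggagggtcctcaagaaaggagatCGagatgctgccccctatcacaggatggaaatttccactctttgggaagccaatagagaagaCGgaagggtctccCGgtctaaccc
Peg3 start (chr7:6730370-6730669, minus strand): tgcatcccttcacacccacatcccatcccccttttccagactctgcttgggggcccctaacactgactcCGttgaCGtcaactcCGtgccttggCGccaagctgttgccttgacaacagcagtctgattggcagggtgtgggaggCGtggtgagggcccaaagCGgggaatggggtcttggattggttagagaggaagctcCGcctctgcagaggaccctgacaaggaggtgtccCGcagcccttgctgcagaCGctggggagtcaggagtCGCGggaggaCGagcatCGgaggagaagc
Sfmbt2 has a pair of annotated starts, with 9 and 16 CG in the window, and 45.8% and 33% of the 32851 promoters of the same length hold as many or more. Each of the 3 annotated Slc38a4 starts has 5, which 62% reach, and the Peg3 window has 13, which 37.9% reach. Among the genes that differed little, Plagl1 had 26 CG and the 2 annotated Zdbf2 starts 15 and 38. The starts of Snrpn had between 2 and 7. The arrays do not tell which start was used, and methylation was not measured.

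Sfmbt2 encodes a protein with MBT repeats of the Polycomb group, which in the mouse is needed for the trophoblast and the placenta. It also carries in an intron a large cluster of microRNA genes, and 72 annotated microRNA genes lie inside the gene. Its brighter probe set had a log2 intensity of 6.94 in the H2A.B knockdown and 10.07 in the control knockdown, a difference of -3.13 or 8.74-fold lower. Its dimmer probe set had 2.47 in the H2A.B knockdown and 5.29 in the control knockdown, a difference of -2.82 or 7.05-fold lower. Both arrays placed the brighter probe set above the array median, so this difference did not rest on a value at the dim end. The dimmer probe set was below the median on both. Counted from the lowest, the differences stood at ranks 85 and 124 of 43045 usable probe sets, and the gene at rank 10 of 8282 past the filter.

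Both probe sets of Sfmbt2 were 2-fold lower. Of 6826 genes with at least 2 usable probe sets, 358 had at least 1 that was 2-fold lower, and in 137 of them (38.3%) every probe set was. Both Sfmbt2 probe sets stand in the middle section, where 3.41% of 14001 usable probe sets were 2-fold lower, beside 1.39% of 17568 in the first section and 3.72% of 11476 in the last. The shares 2-fold higher were 0.319% in the first, 1.6% in the middle and 1.46% in the last section. Within 0.5 of the control level of the brighter probe set, 12 of 492 probe sets of that section (2.44%) were 2-fold lower, and so were 104 of 2445 (4.25%) within 0.5 of the control level of the dimmer one. The genes nearest to Sfmbt2 by the Euclidean distance between pairs of log2 intensities over the 2 arrays were Pacc1 (distance 0.66, difference -2.30), Acpp (0.73, -2.30) and 4930513N10Rik (0.79, -3.59). Pacc1 encodes a proton-activated chloride channel. The other probe set of each of these genes differed by 0.24, -0.07 and -0.29, so each was 2-fold lower on 1 probe set only.

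**Figure D2:**
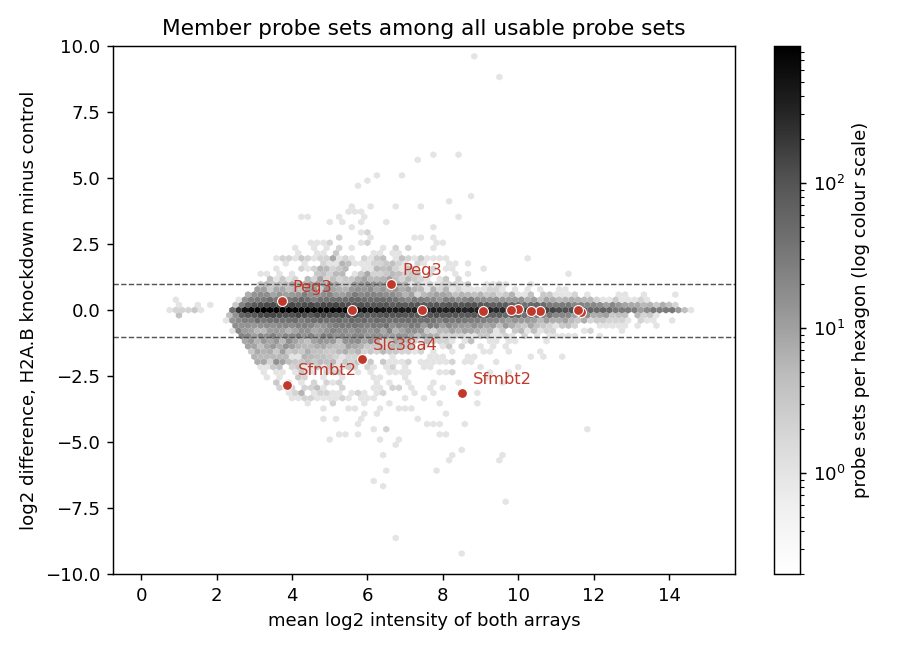
Log2 difference, H2A.B knockdown minus control knockdown (y axis), against mean log2 intensity of both arrays (x axis), with grey hexagons for the 43045 usable probe sets on a log colour scale, red points for the 14 probe sets of these genes and dashed lines at 2-fold. The brighter Sfmbt2 probe set at -3.13 lies well below the bulk at its intensity, and 9 of the 14 points lie within 0.06 of 0.

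Sfmbt2 is a partner of the DNA-binding protein YY1 in the PhoRC complex, and its listed partners and relatives past the filter differed little. Of 13 listed genes 10 were measured and 8 passed the filter, with 1 below and 7 above 0, 0 at 2-fold and a median of 0.06. The largest were L3mbtl3 (0.23), an MBT-repeat relative, Phc1 (0.16), a Polycomb repressive complex subunit, Scmh1 (0.11) and Yy1 itself (0.07). Sfmbt1, the closest relative, was below the filter and had 5.43 in the H2A.B knockdown and 5.60 in the control knockdown. Phc2, another Polycomb subunit and the other measured gene below the filter, had 3.34 in the H2A.B knockdown and 2.75 in the control knockdown, a difference of 0.59, which was the largest of the list. Markers of trophoblast, primitive endoderm and fibroblasts were read beside Sfmbt2, and their part in its difference was not tested. Of 10 trophoblast markers 9 were measured, with log2 intensities from 3.39 to 7.77 in the H2A.B knockdown and from 3.46 to 7.87 in the control knockdown. Their median difference was -0.07, 0 of them were 2-fold lower, and Cdx2 differed by -0.08 and Elf5 by -0.01. Of the 3 past the filter Ascl2 differed by -0.38 (dimmer probe sets -0.95 and 0.99), Eomes by -0.11 and Plet1 by -0.01. All 8 primitive endoderm markers were measured and 0 were 2-fold lower; intensities ran from 3.70 to 8.92 in the H2A.B knockdown and from 3.65 to 8.84 in the control knockdown, and only Lama1 (0.09) passed the filter. All 10 fibroblast and feeder markers were measured, with intensities from 3.78 to 12.28 in the H2A.B knockdown and from 3.21 to 12.18 in the control knockdown; all 5 past the filter lay above 0, led by Vim (0.34) and Col1a1 (0.25), with Fn1 at 0.10 and Col3a1 at 0.07.

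Slc38a4 encodes a sodium-coupled amino acid transporter of liver and placenta, and its probe sets disagreed. The brighter probe set had 9.80 in the H2A.B knockdown and 9.81 in the control knockdown, a difference of -0.01. The dimmer one had 4.93 in the H2A.B knockdown and 6.79 in the control knockdown, a difference of -1.86 or 3.64-fold lower. Only the control value of the dimmer probe set lay above its array median. Of the 6826 genes with several usable probe sets, 138 (2.02%) had probe sets at least as far apart as the 1.85 of Slc38a4. In the first section, where the dimmer probe set stands, 46 of 1986 probe sets within 0.5 of its control level (2.32%) were 2-fold lower. Which transcript each probe set reads was not analysed here.

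Peg3 had the largest positive difference of the 8 measured genes, just under 2-fold. It encodes a large zinc finger protein with roles in fetal growth and maternal behaviour. Its brighter probe set had 7.12 in the H2A.B knockdown and 6.14 in the control knockdown, a difference of 0.98 or 1.97-fold. Its dimmer one had 3.91 in the H2A.B knockdown and 3.55 in the control knockdown, a difference of 0.36. Both probe sets were thus higher in the H2A.B knockdown, the second near the dim end. In the first section, where both stand, 0.319% of usable probe sets were at least 2-fold higher, and 6 of 2253 (0.266%) within 0.5 of the control level of the brighter one.

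Snrpn and Snurf differed little between the arrays. They are encoded by one bicistronic transcript, Snrpn for an Sm protein of the small nuclear ribonucleoproteins used in splicing and Snurf for a short upstream reading frame, so their probe sets are not independent readings. Snrpn had 11.64, 11.59 and 7.46 in the H2A.B knockdown and 11.70, 11.60 and 7.46 in the control knockdown on its 3 probe sets, and the differences were -0.06, -0.0065 and 0.00068. Snurf had 10.56 in the H2A.B knockdown and 10.60 in the control knockdown, a difference of -0.03. The 4 probe sets that name both genes, which entered no count, differed by between -0.15 and 0.04. Other Sm proteins and proteins of the U1 and U2 snRNPs also differed little on their brightest probe sets: all 11 passed the filter, 5 below and 6 above 0, with 0 at 2-fold and a median of 0.01. Snrpb2 (0.20), Snrpe (0.19), Snrpb (0.18), the general counterpart of Snrpn, and Snrnp70 (0.17) had the largest differences. Dimmer probe sets of Snrpb2, a U2 protein, and Snrnp70, a U1 protein, went further, with 0.96 and 0.92, and both lay below the filter.

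Plagl1, Impact and Zdbf2 differed little as well. Plagl1 encodes a zinc finger factor that acts on other imprinted growth genes, and had 10.01 and 5.60 in the H2A.B knockdown and 9.96 and 5.59 in the control knockdown on its probe sets, with differences of 0.04 and 0.01. Impact, on chromosome 18, encodes an inhibitor of Gcn2 signalling and had 10.34 in the H2A.B knockdown and 10.36 in the control knockdown, a difference of -0.02. Zdbf2 encodes a DBF-type zinc finger protein and had 9.04 in the H2A.B knockdown and 9.09 in the control knockdown, a difference of -0.05. The spread between probe sets of a gene gives the only scale here. Over all usable probe sets, dim ones included, its SD was 0.02 for Plagl1, 0.03 for Snrpn, 0.22 for Sfmbt2, 0.44 for Peg3 and 1.31 for Slc38a4, beside a median of 0.06 over 6826 genes. Over probe sets past the filter the median SD was 0.05 in 2556 genes, and of these 5 genes Snrpn alone had several. Mest, which encodes a hydrolase-like membrane protein, shares its one probe set with the neighbouring Copg2, and that probe set had 10.27 on each array, a difference of -0.0018.

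Genes that maintain imprints differed little among those past the filter, while a few genomic neighbours were lower. Imprint maintenance genes had 10 of 13 measured and 9 past the filter, 2 below and 7 above 0, with 0 at 2-fold and a median of 0.04. They were led by the corepressor Trim28 (0.30), the H3K9 methyltransferase Setdb1 (0.18, and -0.11 on its dim probe set), the oocyte factor Dppa3 (-0.12) and the methyltransferase Dnmt1 (0.11). Of 37 genomic neighbours 29 were measured and 8 passed the filter, with a median of 0.02 and 1 of 8 at least 2-fold lower, beside 1.28% of all genes past the filter: the Zdbf2 neighbour Adam23, an adhesion protein, at -2.14. Adam23 had 8.97 in the H2A.B knockdown and 11.11 in the control knockdown on that probe set, while its other 2 differed by -0.15 and -0.21. The amino acid transporter Slc38a1 at -0.42, the coatomer subunit Copg2 at -0.36, and Casd1 at 0.09, an O-acetyltransferase gene with -0.35 on its dimmer probe set, followed. With no filter 3 of 29 were at least 2-fold lower and 0 higher, where 2.91% and 1.13% of all genes were. Beside Adam23 these were the Snrpn neighbour Ndn (-2.01) and the Peg10 neighbour Ppp1r9a (-3.02), a neuronal scaffold gene, both named after their values were seen.

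Of 23 other paternally expressed genes, 18 were measured and 5 passed the filter: Igf2, Kcnq1ot1, Mcts2, Jade1 and Gab1. Igf2, the fetal growth factor, had 6.15 in the H2A.B knockdown and 7.61 in the control knockdown, 2.74-fold lower, and its dimmer probe set had 2.61 in the H2A.B knockdown and 3.67 in the control knockdown. The non-coding Kcnq1ot1 differed by 0.80, and its other 5 probe sets by between -0.50 and 0.75. Mcts2 differed by -0.11, Jade1 by 0.05 and Gab1 by 0.02. With no filter on intensity 5 of 18 were at least 2-fold lower and 0 higher, beside 2.91% and 1.13% of all 16563 genes. The median was -0.04. Those shares pool genes past and below the filter, and of genes past it 1.28% were 2-fold lower. Genes below the filter were not taken alone, here or for the other lists read with no filter. The 5 lower genes were, beside Igf2, Smoc1 (-2.12), Ndn (-2.01), Rasgrf1 (-1.75) and Dlk1 (-1.06), which were named after their values were seen. All 4 lay below the filter, with H2A.B knockdown values from 2.17 for Rasgrf1 to 5.28 for Dlk1, each under that array's median, so the sizes are uncertain. The dimmer Rasgrf1 probe sets differed by less, -1.03 and -0.99. The Ndn neighbours Magel2, Mkrn3 and Peg12 differed by -0.02, -0.07 and 0.57. Peg12 had 5.03 in the H2A.B knockdown and 4.47 in the control knockdown, each under its array's median. Usp29, which shares its start region with Peg3, had 4.72 in the H2A.B knockdown and 4.65 in the control knockdown, a difference of 0.08, with both values under the array medians. The dimmer Usp29 probe set differed by -0.08.

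The genes reported to share histone-based imprinting with Sfmbt2 and Slc38a4 had 11 of 13 measured and 8 past the filter, 5 below and 3 above 0, with 0 at 2-fold and a median of -0.02. Beside Slc38a1 (-0.42) they included the transcription factors Sall1 (0.17) and Etv6 (-0.17) and the non-coding RNA Xist (-0.11). With no filter 1 of 11 was at least 2-fold lower, where 2.91% of all genes were: Smoc1 at -2.12. Runx1, a blood transcription factor gene below the filter that was named after its values were seen, differed by -0.94 on its brightest probe set, and its 6 probe sets lay between -1.15 and -0.94. In the imprinted gene network linked to Plagl1, 14 of 16 were measured and 6 passed the filter, 2 below and 4 above 0, with a median of 0.03. Igf2 was the 1 of 6 at least 2-fold lower, beside 1.28% of all genes past the filter. With no filter 3 of 14 were (Igf2, Ndn and Dlk1), beside 2.91% of all genes. The lists overlap, so their counts are not separate results. Igf2, Ndn, Dlk1 and Smoc1 were all counted among the other paternally expressed genes, and Ndn also among the genomic neighbours. After Igf2, Col1a1 (0.25), the non-coding Meg3 (-0.19) and Col3a1 (0.07) came next past the filter on their brightest probe sets. Meg3 had no single direction: of its other 9 probe sets 7 were higher, by 0.03 to 0.60, while 1 was at -0.60 and 1 at 0. The growth inhibitor Cdkn1c differed by 0.01. Relatives and partners of Slc38a4 and Impact had 16 of 18 measured and 14 past the filter, 6 below and 8 above 0, with 0 at 2-fold and a median of 0.04. The largest were the transporter Slc38a6 (-0.74, and 0.63 on its dimmer probe set), Slc38a1, Atf4 (0.15), the transcription factor of amino acid stress, and Slc38a9 (0.12). The Gcn2 kinase gene Eif2ak4 differed by 0.09. Relatives and partners of Peg3 and Plagl1 had 7 of 9 measured and 5 past the filter, 4 below and 1 above 0, with 0 at 2-fold. Their median was -0.09. They were Zscan20 at -0.76, Traf2 at -0.58, Zscan22 at -0.09 (-0.32 on its other probe set), Siah1a at -0.04 and Zscan21 at 0.0044. Genes derived from retrotransposons, as Peg10 is, had 8 of 18 measured and 3 past the filter, with a median of -0.14. Of these 3 genes 1 was at least 2-fold lower, beside 1.28% of all genes past the filter. The 3 were Rtl8c, Pnma2 (-0.14) and Rtl8a (0.04). Rtl8c was lower by 2.47-fold on the one probe set it has, which may also read its near-identical Rtl8 copies. The other Pnma2 probe set, also past the filter, differed by 0.90, so its probe sets disagreed in sign.

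**Figure D3:**
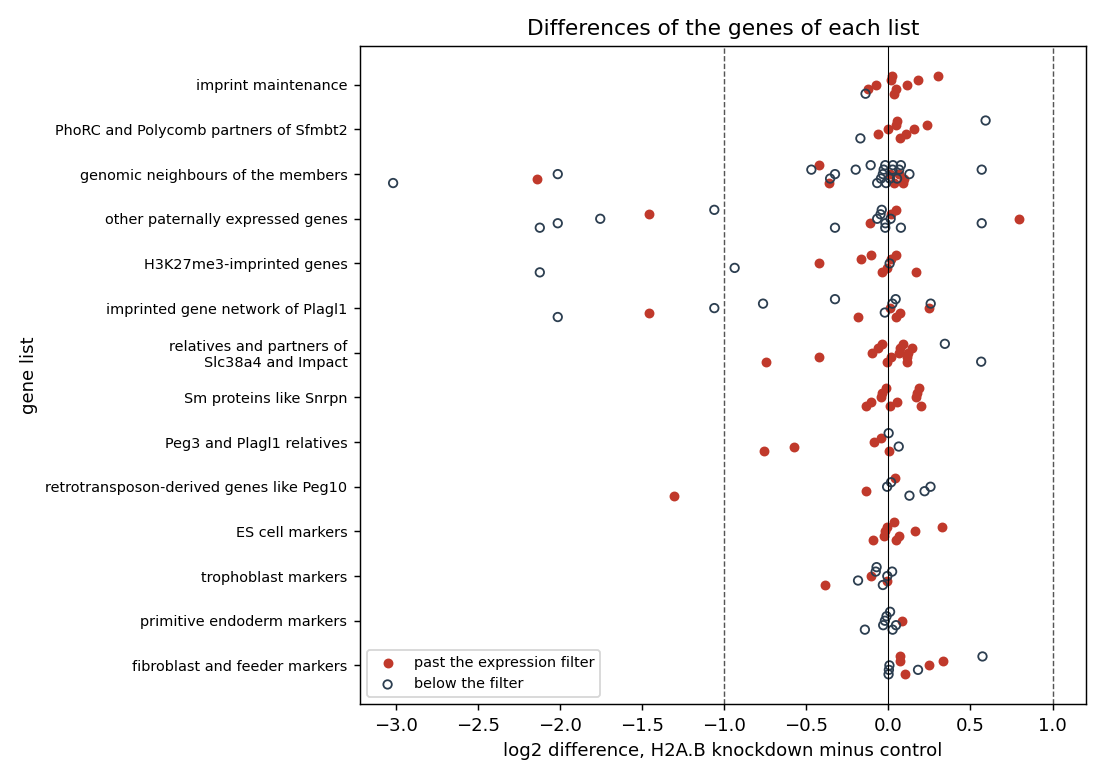
Log2 difference, H2A.B knockdown minus control knockdown (x axis), of every measured gene of each list (rows), read on its brightest probe set, with filled points past the expression filter, open points below it and dashed lines at 2-fold. Most genes lie near 0, and the points beyond 2-fold are all on the lower side.

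The differences of these arrays were not spread smoothly, which touches Peg3 and other genes named above. In bins of 0.1 over the first section, 84 probe sets lay in the bin at -1, with 34 and 54 in the bins next to it at -1.1 and -0.9, then 13 at -0.8 and 11 at -0.6, while 184 lay in that at -0.5. On the higher side 26 lay in the bin at 1, which holds the brighter Peg3 probe set, with 20 at 0.9 and 5 at 1.1. The first-section bin at -2, which holds Ndn (-2.01), held 14, with 8 at -2.1 and 7 at -1.9. In the middle section, where both Sfmbt2 probe sets stand, 27 lay in the bin at -2, with 12 at -2.1 and 17 at -1.9. At 2 that section had 20, with 11 at 1.9 and 4 at 2.1. It had no peak at -1, with 121 there and 121 at -0.9, or at 1, with 52 there and 52 at 0.9. The Sfmbt2 bins, at -3.1 and -2.8, held 6 and 4, with 7 at -3.2, 7 at -3, 5 at -2.9 and 4 at -2.7. These outer bins hold small counts. In the last section 24 lay in the bin at -2, with 6 at -2.1 and 16 at -1.9. That section had no peak at -1 (93, with 107 at -0.9), at 1 (36, with 48 at 0.9) or at 2 (5, with 8 at 1.9). Some bins off whole numbers stood out too, such as 0.6 in the first section, with 50 beside 18 at 0.5 and 33 at 0.7. These bins were examined after the values were seen, and what sets them was not tested.

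**Figure D4:**
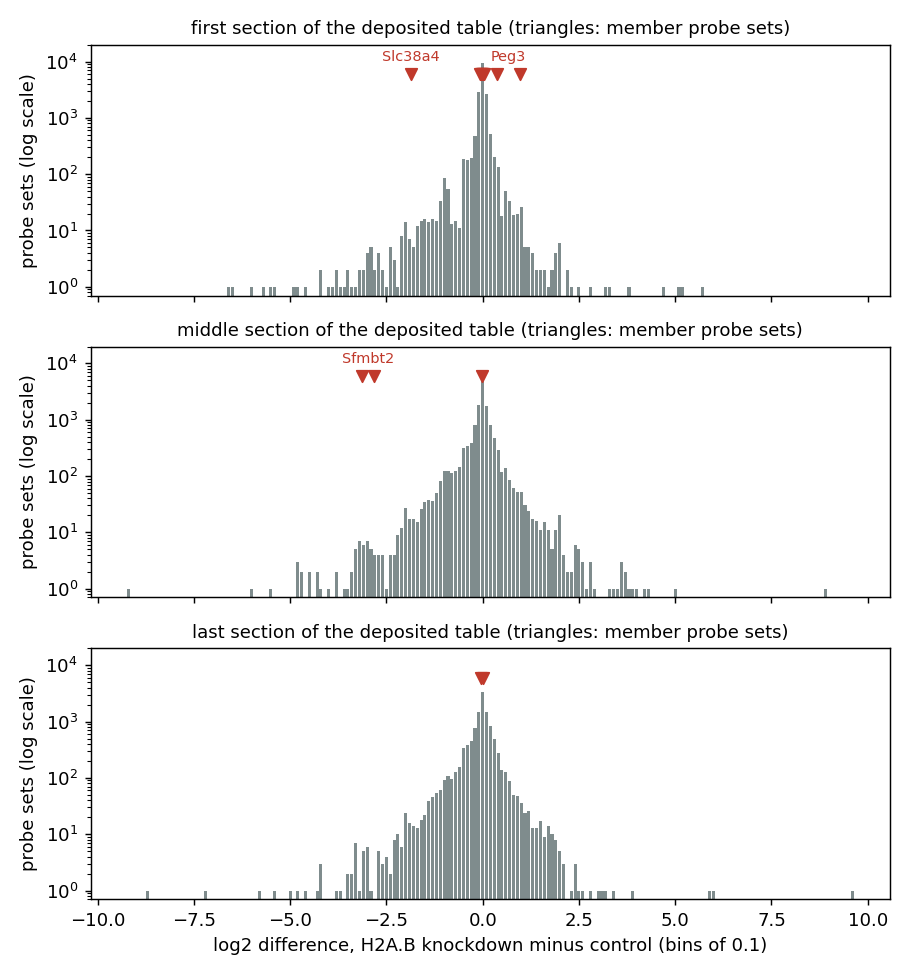
Number of usable probe sets (y axis, log scale) by log2 difference, H2A.B knockdown minus control knockdown (x axis, bins of 0.1), in the first, middle and last section of the table, with red triangles at the probe sets of these genes. The first section has local peaks at -1, 1, -2 and 2, with 84, 26, 14 and 6 probe sets, and its Peg3 triangle at 0.98 falls on one of them. The middle section, which holds the Sfmbt2 triangles, has local peaks at -2 and 2, with 27 and 20 probe sets. It has none at -1 or 1, and the last section has one at -2 but none at -1, 1 or 2.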

How the data were processed

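Total RNA from 1 H2A.B knockdown and 1 control knockdown culture was hybridised to an Affymetrix array, per the labels. The deposited log2 intensities were made by the authors with RMA, per the submitters' processing notes, which background-corrects, quantile-normalises and summarises probes; no version is stated, and the scale was read from the values. In the deposited knockdown column 616 values rising in steps of 1 and 2 values above 20 were left out, and so were 1455 control values identical to a value of either column up to 20 rows above. Of 45118 probe sets 28898 named 1 gene; gene identifiers of 28689 were found in the GRCm38.p6 gene table. The gene value was the brightest usable probe set, and the filter was the median over genes. The size rule was 2-fold. No p-value was computed, since 1 array per group allows none, and having only 2 arrays sets the precision.

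The 10 genes and 14 gene lists were chosen with earlier results of these data known. Genes named are all members, up to 4 genes of each list with the largest difference past the filter, all past it at 2-fold, and 3 genes nearest to a member at 2-fold; others are named for their role or after their values were seen. Alternatives were 9 planned and 2 added after seeing the data. The procedure was tested on simulated data. Python 3.11.15 with pandas 2.3.3 and statsmodels 0.14.6 was used.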

Additional observations from a re-analysis of the deposited data

How the results depend on the processing

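The counts of 1 gene at least 2-fold lower and 0 at least 2-fold higher stayed as they were under 9 of 11 alternatives. The lower count was 0 with the filter at the 75th percentile of mean intensity (8.82), which Sfmbt2 itself did not pass, and 0 without the middle section, which holds both Sfmbt2 probe sets. The higher count was 0 under all 11. The median over the genes stayed within the spread between probe sets of a gene under each of the 10 alternatives that bear on it. The difference of Sfmbt2 lay between -3.13 and -2.97 wherever it was measured. With the median over probe sets Peg3 was at 0.67 and Slc38a4 at -0.94, and without the middle section Slc38a4 was read from its dimmer probe set alone, at -1.86. Of 77 values of single genes 73 stayed within the spread, 4 moved and 0 reversed. Many of the 77 could not change. The filter settings do not alter a gene's own difference, and 0 of the 14 probe sets had a repeated control value to keep. Genes with 1 probe set keep their value under the median over probe sets. The 73 is thus partly set in advance. No paired analysis was possible because each group has 1 array, and leaving out a replicate was not possible for the same reason. Signal over background was not analysed, so differences with a dim value on one array are uncertain in size.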

Other observations

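Some genes near or like those described had nearly the same difference on several, though not always all, of their probe sets, and were picked out after their values were seen. Ppp1r9a, a neuronal scaffold gene of the Peg10 and Sgce region, was below the expression filter. It had log2 intensities of 4.92, 4.91, 2.97 and 2.39 in the H2A.B knockdown and 7.93, 7.91, 5.97 and 3.40 in the control knockdown, with differences of -3.02, -3.00, -2.99 and -1.01. The 6 probe sets of Runx1, also below the filter, had 5.08, 4.50, 3.37, 3.12, 3.05 and 2.42 in the H2A.B knockdown and 6.02, 5.58, 4.52, 4.19, 4.06 and 3.48 in the control knockdown. The Ppp1r9a differences lay close to the whole log2 number -3, and close to -1 on its dimmest probe set, and those of Runx1 lay between -1.15 and -0.94. Counts over usable probe sets also had local peaks at some whole log2 numbers and not at others, as given above. Probe sets of a gene share the same arrays, so their likeness is not replication. What makes such differences so alike, or so near whole numbers, was not tested.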
